A study of Arabidopsis thaliana with 12 samples.

Results

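Plastid-encoded photosynthesis and NDH genes were described in Arabidopsis thaliana seedlings. Members were the probe sets of the Affymetrix ATH1 array assigned to a single gene of the plastid genome whose symbol starts with psa, psb, pet, ndh or atp, or is rbcL. This gave 43 genes, with 1 probe set each, of 22746 probe sets without controls. They comprised 15 genes named for photosystem II, 5 of photosystem I, 6 of the cytochrome b6f complex, 6 of the ATP synthase, 10 of the NDH complex and rbcL.

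The arrays held RNA of rop10-1 seedlings with abscisic acid (rop10-1 ABA), Ws seedlings with abscisic acid (Ws ABA), rop10-1 seedlings with solvent (rop10-1 mock) and Ws seedlings with solvent (Ws mock), 3 arrays each. Abscisic acid (ABA), a hormone of drought and seed dormancy, was given at 1 µM for 4 hours, and mock seedlings received the solvent DMSO. All seedlings were 7 days old, were grown in shaken liquid medium with sucrose, and were extracted whole. Ws is the wild-type accession, and rop10-1 is a mutant allele of ROP10, a small GTPase, so the mutant groups stand for 1 allele.

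The plastid keeps a small genome of its own, and its photosynthesis genes encode core subunits of thylakoid complexes whose other subunits come from the nucleus. Photosystem II splits water, the cytochrome b6f complex passes electrons on, photosystem I reduces ferredoxin, and the ATP synthase uses the proton gradient. The NDH complex returns electrons from ferredoxin to the plastoquinone pool, and Rubisco fixes carbon dioxide. Most plastid genes are transcribed in units of several genes, by a plastid-encoded polymerase of bacterial type and by nuclear-encoded polymerases of phage type.

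Values are the deposited probe set intensities, and differences are on the scale log2(intensity + 16). Probes differ in how brightly they report a transcript, so levels were compared between arrays and not between genes. Whether intensity follows the level of plastid transcripts alike on all arrays was not tested. ROP10 had no probe set in the probe table, and the mutated gene could not be checked. The green tissue genes RCA, for Rubisco activase, and LHCB4.1, for a light-harvesting protein, had mean intensities of 13078 and 12330, with 1 probe set each. The 2% trimmed mean of intensity was 500.04 to 500.048 on the 12 arrays, and their number limits the precision. The filter on low values kept 15923 probe sets, among them 41 of the 43 members. The filter left out petD, of the cytochrome b6f complex, and ndhF, of the NDH complex, at mean log2 values of 6.35 and 5.26 against a threshold of 6.38. The members just inside were petN at 6.75, psbN at 6.91 and atpI at 7.06. The genes psbD and psbC overlap in the annotation, as do atpE and atpB, so their probe sets may read shared transcripts and are uncertain as separate genes. The gene psbN, which lies beside the psbB unit on the other strand, is known as a factor of photosystem II assembly and not as a subunit.

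The members differed by the replicate number that the titles give, 1 to 3 in every group. In 35 of 41 members the intensity differed by number (limma's moderated F test beside the group means, adjusted p under 0.05), where 20.0% of all tested probe sets did. In the pairwise contrasts 36 members were higher in number 3 than in number 1 and 0 were lower, where 7.32% of all probe sets were called higher and 8.15% lower. The member median of that difference was 0.89, with a range of 0.03 to 1.82, against -0.03 over all tested probe sets. The titles do not say what a number stands for. The members were chosen with earlier results of these data known, so this count is a description of the module.

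Intensities are given below in the order rop10-1 ABA, Ws ABA, rop10-1 mock and Ws mock within each number. The gene rbcL encodes the large subunit of Rubisco, which carries the catalytic sites. It read 619.9, 791.3, 651.1 and 753.3 on the arrays numbered 3. It read 196.9, 208.6, 324.7 and 322.2 on those numbered 2, and 175.6, 192.4, 217.3 and 166.9 on those numbered 1. Every number 3 array was above the other 8, and the means over the 4 arrays were 704 ± 81.5 in number 3 and 188 ± 22.2 in number 1 (SD, n = 4 each). The difference of number 3 minus number 1 was 1.82 (SE 0.15, limma adjusted p = 4.8e-05), the largest among the 41 members tested.

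**Figure D1:**
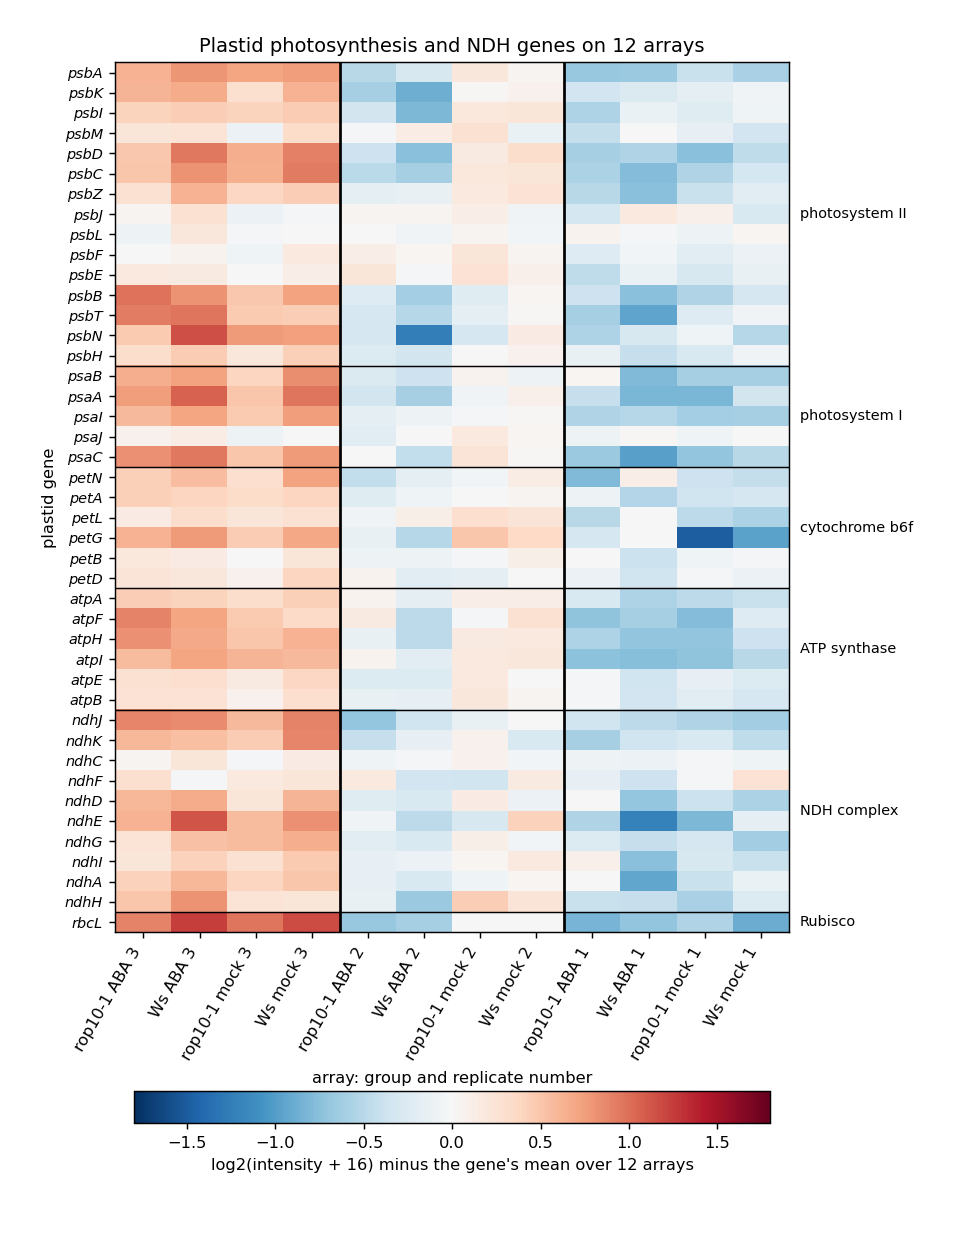
Each row is 1 of the 43 members, sorted by complex, and each column 1 of the 12 arrays, ordered by replicate number and then by group. Colour gives log2(intensity + 16) minus the gene's mean over the 12 arrays, and the 4 columns of number 3 lie above the mean for most genes, with 35 to 41 of the 41 tested members above their own mean on each.

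Among the photosystem II genes, psbA encodes the D1 reaction centre protein, which is replaced as light damages it. Its intensity was 8022.8, 9054.0, 8487.6 and 8771.4 in number 3, 3658.0, 4254.3, 5988.4 and 5374.1 in number 2, and 3221.0, 3252.0, 3951.3 and 3461.0 in number 1. Every number 3 array was above the other 8, while numbers 2 and 1 overlapped, and number 3 exceeded number 1 by 1.31 (SE 0.10, limma adjusted p = 4.5e-05). The gene psbB encodes the inner antenna protein CP47. It read 1943.9, 1718.0, 1376.0 and 1621.0 in number 3, 825.9, 630.0, 835.6 and 1002.3 in number 2, and 751.6, 569.4, 662.9 and 788.3 in number 1. Numbers 2 and 1 overlapped while number 3 stood above both, by 1.25 over number 1 (SE 0.12, limma adjusted p = 0.00016). The D2 protein gene psbD and the CP43 gene psbC differed by 1.33 and 1.27 in the same contrast. In all, 12 of the 15 photosystem II genes were higher in number 3 than in number 1, with a median difference of 0.76 over the 15.

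In photosystem I, 4 of 5 genes were higher in number 3 than in number 1. The gene psaI, for a small membrane subunit, had the largest F of all members (105.8, adjusted p = 4e-05). Its intensity was 3508.6, 3850.7, 3240.1 and 3957.1 in number 3, 2077.0, 2195.2, 2289.1 and 2382.8 in number 2, and 1598.6, 1641.3, 1529.5 and 1539.3 in number 1. The 3 numbers formed separate ranges, and replicate number held 97.3% of the gene's variance over the 12 arrays. The genes psaA and psaB, for the reaction centre proteins, differed by 1.42 and 1.14 between number 3 and number 1, and psaC, for the subunit with the terminal iron-sulphur clusters, by 1.47. The exception was psaJ, for another small membrane subunit, at 0.07.

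**Figure D2:**
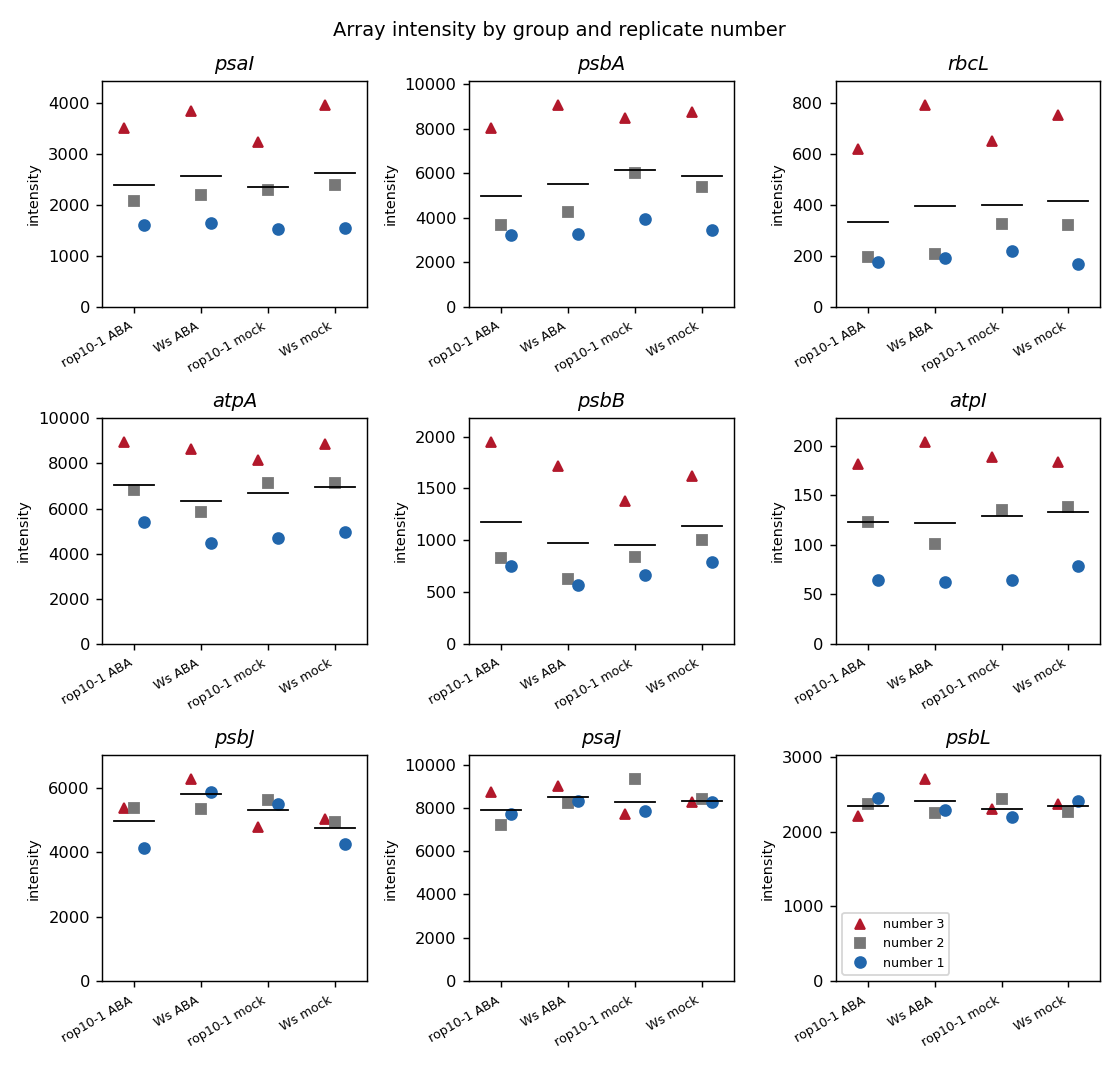
Intensity on a linear axis starting at 0 in each of the 4 groups, with 1 point per array, marker by replicate number and a line at the group mean (n = 3), for the 6 members with the largest and the 3 with the smallest F for number. For psaI, psbA, rbcL, atpA, psbB and atpI the triangles of number 3 lie above the other arrays in every group, whereas the markers mix for psbJ, psaJ and psbL.

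All 6 plastid genes of the ATP synthase were higher in number 3 than in number 1. The gene atpA, for the alpha subunit of the catalytic head, read 8936.8, 8650.8, 8175.0 and 8842.0 in number 3, 6841.7, 5853.0, 7147.4 and 7117.4 in number 2, and 5408.3, 4485.4, 4711.2 and 4947.0 in number 1. The gene atpI, for a membrane subunit, read 181.3, 203.4, 188.7 and 183.2 in number 3, 123.4, 100.6, 135.3 and 138.3 in number 2, and 64.3, 62.6, 64.7 and 78.3 in number 1. Both genes kept the 3 numbers in separate ranges, with number 3 above number 2 and number 2 above number 1. Number 3 exceeded number 1 by 0.82 for atpA (SE 0.07, limma adjusted p = 6.1e-05) and by 1.30 for atpI (SE 0.12, limma adjusted p = 0.00012). The genes atpH and atpF, for the proton-carrying ring and the stalk, differed by 1.24 and 1.19, and atpB and atpE, for the beta and epsilon subunits, by 0.44 and 0.47. The intensity of atpB was 14477.7, 14377.8, 12712.6 and 14885.4 in number 3, 10934.0, 10872.3, 13928.9 and 12440.6 in number 2, and 11835.3, 9458.6, 10506.4 and 9794.9 in number 1. Number 3 lay above number 1 and overlapped number 2.

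All 5 tested cytochrome b6f genes were higher in number 3 than in number 1, by 0.26 to 1.32. The smallest of these differences was that of petB, for cytochrome b6, which the F test did not call (adjusted p = 0.072). Its intensity was 12170.4, 11753.0, 10678.6 and 12403.2 in number 3, 9955.2, 10011.7, 10493.2 and 11447.0 in number 2, and 10733.4, 8133.9, 10034.2 and 10492.3 in number 1, so that numbers 3 and 1 overlapped by 1 array. The gene petA, for cytochrome f, differed by 0.70 and the small subunit gene petG by 1.32.

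Of the 9 tested NDH genes 8 were higher in number 3 than in number 1. The differences were 1.47 for ndhE, 1.30 for ndhJ, 1.04 for ndhK and 0.94 for ndhD. The member not called was ndhC, a membrane subunit. It read 5920.0, 6655.6, 5620.7 and 6338.0 in number 3, 5446.1, 5602.2, 6010.8 and 5519.9 in number 2, and 5343.5, 5314.6, 5626.7 and 5404.3 in number 1, a difference of 0.17 between number 3 and number 1. The probe set of ndhB names both copies of that gene and was left out by the single-gene rule. Its intensity was 113.8, 85.9, 118.5 and 83.5 in number 3, 90.2, 114.1, 83.7 and 87.0 in number 2, and 89.4, 111.7, 61.2 and 99.4 in number 1, with overlapping numbers (F test adjusted p = 0.813).

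**Figure D3:**
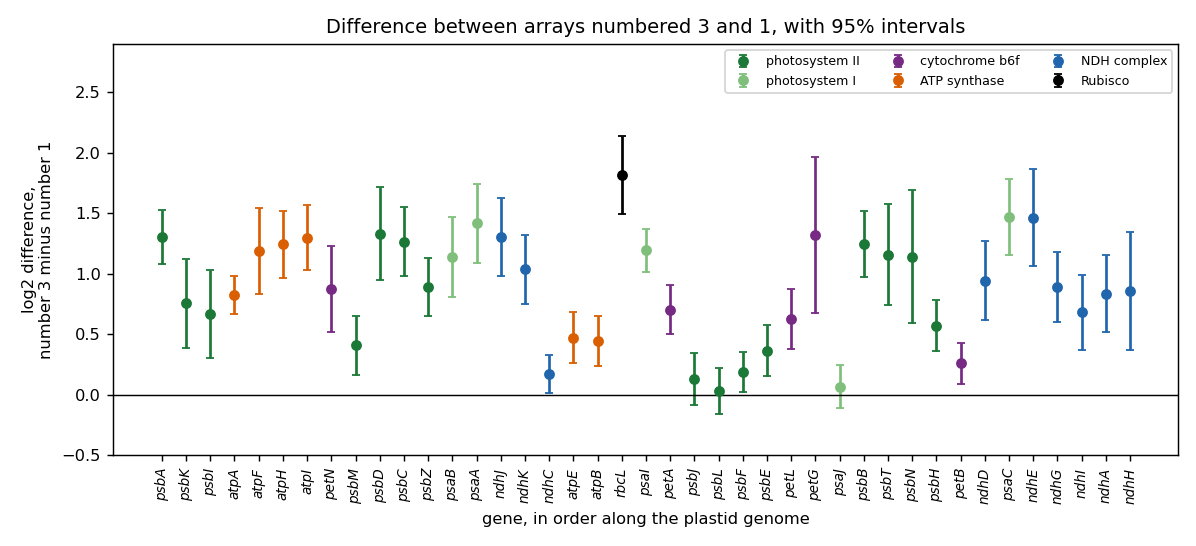
Difference in log2(intensity + 16) of number 3 minus number 1 for each of the 41 tested members, with 95% confidence intervals from limma (4 arrays per number), in gene order along the plastid genome and coloured by complex. All 41 estimates are above 0, the highest being rbcL at 1.82 and the lowest psbL at 0.03.

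The F test left 6 members uncalled, which were psbF, psbJ, psbL, psaJ, petB and ndhC. The genes psbJ and psbL encode small membrane subunits of photosystem II. The intensity of psbJ was 5353.3, 6250.7, 4778.7 and 5034.3 in number 3, 5364.2, 5339.9, 5628.2 and 4926.7 in number 2, and 4131.4, 5854.3, 5490.4 and 4259.6 in number 1. That of psbL was 2203.6, 2697.2, 2302.2 and 2370.9 in number 3, 2365.8, 2244.0, 2429.8 and 2260.9 in number 2, and 2454.5, 2290.8, 2193.2 and 2412.0 in number 1. The numbers overlapped in both genes. The intensity of psaJ was 8729.6, 9017.7, 7708.3 and 8278.5 in number 3, 7194.9, 8218.0, 9313.5 and 8397.4 in number 2, and 7730.6, 8332.7, 7834.2 and 8272.7 in number 1, again with overlap. Replicate number held 4.41% of the variance of psbL, 7.61% of that of psaJ and 12.3% of that of psbJ.

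Neighbouring genes of a transcription unit moved alike in some units and unlike in others. All 4 genes of psbE-psbF-psbL-psbJ had small differences between number 3 and number 1, from 0.03 for psbL to 0.36 for psbE, the sole member of the unit that was called. In atpI-atpH-atpF-atpA the 4 differences were 0.82 to 1.30, and in psaA-psaB they were 1.14 and 1.42. The unit from ndhH to ndhD, with 7 genes including psaC, ran from 0.68 for ndhI to 1.47 for psaC, all called. In ndhC-ndhK-ndhJ the difference was 0.17 for ndhC but 1.04 and 1.30 for ndhK and ndhJ. In the psbB unit it was 1.25 for psbB, 1.16 for psbT, 0.57 for psbH and 0.26 for petB. The probe sets of a unit also differed in brightness. Mean intensity was 5734 for ndhC, 215 for ndhK and 223 for ndhJ. It was 1060 for psbB, 810 for psbT, 3655 for psbH and 10692 for petB. The gene psbL, with the smallest difference, had a mean intensity of 2352. Whether genes of a unit differ apart from brightness was not tested.

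The difference was smaller in members with brighter probe sets. Among 13 members with a mean intensity over 5000 the median difference of number 3 minus number 1 was 0.41, with 9 called, and among 28 members up to 5000 it was 1.15, with 27 called. Spearman's correlation of the difference with mean log2 intensity was -0.62 over the 41 members, which share the same 12 arrays. The highest member intensity on any array was 14885.4, and the highest of any probe set was 21789.1. The part of probe set brightness in these differences was not tested.

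The member median was 0.60 for number 3 minus number 2 and 0.30 for number 2 minus number 1. Of the 41 members 21 were higher in number 3 than in number 2, where 0.804% of all probe sets were, and 0 were lower, where 1.06% were. Between number 2 and number 1, 12 members were higher, where 9.19% of all probe sets were, and 0 were lower, where 8.75% were. The 21 members made up 16.4% of the 128 probe sets called higher in number 3 than in number 2, and 51.2% of the members. With the other plastid-encoded genes the share of those 128 was 21.9%.

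Number 3 was the highest of the 3 arrays in all 4 groups for 29 of 41 members (4.27% of all probe sets). All 4 number 3 arrays lay above the other 8 for 28 members (0.722% of all probe sets). All 4 number 3 arrays lay above all 4 number 1 arrays for 34 members (4.60% of all probe sets). Number 1 was the lowest in all 4 groups for 20 members (8.90% of all probe sets). The full order of number 3 over 2 over 1 in all 4 groups was present in 16 members (1.01% of all probe sets). The median difference of number 3 minus number 1 over the members was 0.91 in rop10-1 ABA, 1.17 in Ws ABA, 0.78 in rop10-1 mock and 0.84 in Ws mock. On the linear scale the ratio of the number 3 mean to the number 1 mean had a median of 1.91 over all 43 members, with a range of 1.02 to 3.74, and exceeded 1.5 in 30 of them.

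Replicate number took a median of 77.9% of the variance of the 41 members over the 12 arrays, against 25.1% over all tested probe sets. The median share of ABA was 1.26% in the members and 14.9% in all probe sets, and that of genotype was 0.69% and 5.35%. The median SD over the 12 arrays was 0.46 in the members and 0.25 in all probe sets. Over the 820 pairs of members the median correlation of log2 values across the 12 arrays was 0.80, and it was 0.41 once the mean of each number had been removed. The arrays share their numbers and groups, so these correlations are descriptions.

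Other genes were read beside the members. Over all tested probe sets 7.32% were called higher in number 3 than in number 1 and 8.15% lower. Of the 18 tested plastid genes for polymerase subunits and ribosomal proteins 10 were higher in number 3 than in number 1, with a list median of 0.59. They included rpoB at 1.39 and rpoC2 at 1.28, subunits of the plastid-encoded polymerase, with the ribosomal protein genes rps15 at 1.04 and rpl36 at 0.59. Among 7 other plastid-encoded genes 6 were higher, with a median of 0.89, including accD, a subunit of acetyl-CoA carboxylase, at 1.22, ycf3, a photosystem I assembly factor, at 1.21, cemA, for an envelope membrane protein, at 0.89, and ccsA, for cytochrome c synthesis, at 0.79. Of 5 tested mitochondrial probe sets, for 3 genes, 2 were higher, nad4 at 0.61 and cox1 at 0.48, and the other 3 read nad1. When RefSeq synonyms were matched too, which was chosen after seeing the data, 9 probe sets of 7 mitochondrial genes were tested, with a median of 0.10. Besides nad4 and cox1, 1 of them was higher, listed as ccb382 and named ccmFN1 in RefSeq, a gene of cytochrome c maturation, at 1.44 (SE 0.12, limma adjusted p = 5.2e-05).

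Nuclear genes of photosynthesis and chlorophyll synthesis were read in the same way. Of 17 tested, 2 were higher in number 3 than in number 1, where 7.32% of all probe sets were. None was lower, where 8.15% of all were, and the list median was 0.16. So few calls leave little to read from the list's count. The lists were not matched for brightness. Several of these nuclear probe sets had a mean intensity over 5000, and the members over 5000 had a median of 0.41. The 2 called higher encode NDH subunits, NdhN at 0.77 (limma adjusted p = 0.014) and NdhS at 0.29 (limma adjusted p = 0.042). Rubisco activase (RCA) differed by 0.005 and the light-harvesting gene LHCB4.1 by 0.08. LHCB4.2 and LHCB4.3 were higher in number 3 than in number 2, by 0.60 and 0.50, where 0.804% of all probe sets were. LHCB4.3 was also lower in number 2 than in number 1, at -0.62, where 8.75% of all probe sets were. For the nuclear electron carriers, plastid sigma factors, polymerase-associated proteins, phage-type polymerases and GOLDEN2-like factors no probe set was assigned to a gene of the list alone.

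**Figure D4:**
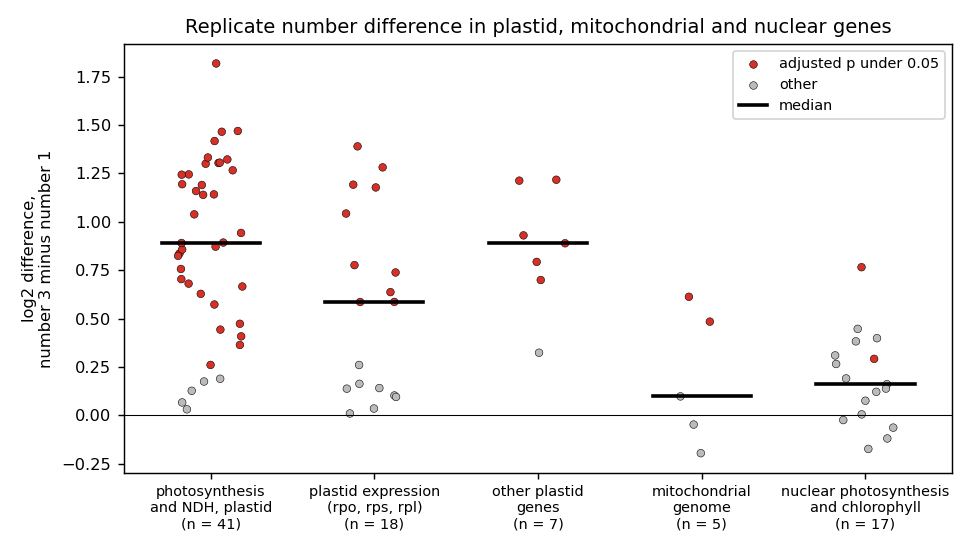
Difference in log2(intensity + 16) of number 3 minus number 1 for each tested probe set of 5 lists, 1 point per probe set and 1 probe set per gene except for 3 of nad1 among the 5 mitochondrial points, red where the limma adjusted p was under 0.05, with a line at the list median. Medians are 0.89 for the members, 0.59 for plastid polymerase and ribosomal genes, 0.89 for other plastid genes, 0.10 for mitochondrial probe sets matched by symbol and 0.16 for nuclear photosynthesis genes. The lists are not matched for brightness.

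The 10 named genes with profiles closest to the mean of the members over the 12 arrays had Pearson correlations of 0.924 to 0.969. They were cemA, rpoC2, accD, ccb382, ycf3, ycf4, rpl16, AT5G49410, rps2 and rps15, of which 8 are plastid-encoded and ccb382 is mitochondrial. One unnamed probe set lay above the tenth. These profiles share the 12 arrays with the members, and the correlations are given as a description.

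RNA quality was read from control transcripts, with no test. The log2 intensity of the 25S rRNA control was 7.07 to 7.60 in number 3, 5.86 to 7.11 in number 2 and 6.25 to 6.65 in number 1. The log2 ratio of 3' to 5' signal of GAPDH was -0.53 to -0.41 in number 3, -0.57 to -0.47 in number 2 and -0.45 to -0.28 in number 1. The ranges of numbers 3 and 1 overlapped for this ratio, for the other 5 ratios of actin, GAPDH and ubiquitin and for the 5S rRNA control, but not for the 25S rRNA control. The part of RNA quality in the number difference was not tested. The share of green cells and the plastid RNA per cell were not measured in these whole seedlings, and their part was not tested. Between number 3 and number 1 the green tissue genes RCA, LHCB4.1, LHCB4.2 and LHCB4.3 differed by 0.005, 0.08, 0.31 and -0.12, none of them called. They were not matched to the members for brightness. RCA and LHCB4.1 had mean intensities of 13078 and 12330, and the members over 5000 had a median difference of 0.41. The root hair genes EXPA7 and EXPA18 differed by 0.00 and -0.04 between number 3 and number 1. The lists of root and seed markers had no single-gene probe set.

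ABA against mock was compared within each genotype. In rop10-1 0 of 41 members were called by limma's group fit, where 6.54% of all tested probe sets were, and 0 had an unadjusted p under 0.05, where 19.0% of all did. In Ws 0 members were called, where again 6.54% of all were, and 1 member, psbJ, had an unadjusted p under 0.05, where 20.1% did. The member median of ABA minus mock was -0.02 in rop10-1, with 23 of 41 below 0, and -0.15 in Ws, with 33 below 0. The medians of all probe sets were -0.05 in rop10-1 and -0.04 in Ws.

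The group fit leaves number differences in its error. Replicate number took a median of 77.9% of the variance in the members and 25.1% over all probe sets. The members' counts and the shares of all probe sets are therefore not like for like in the group fit, for ABA or genotype. The intervals were narrower in the fit with the replicate number. The median half-width of the 95% interval over the members was 0.79 in the group fit and 0.33 with the replicate number as a block. In the group fit the whole interval lay within a 2-fold change for 24 of 41 members in rop10-1 and 22 in Ws, and with the block for 41 in rop10-1 and 40 in Ws. With the block 0 members were called in either genotype, where 15.6% of all probe sets in rop10-1 and 15.7% in Ws were. At an unadjusted p under 0.05 the block gave 1 member in rop10-1, 5 in Ws and 4 in the average over both genotypes. The share of all probe sets at that level was not counted for the block. It is at least the share called by adjusted p with the block. That share was 15.6% in rop10-1, 15.7% in Ws and 28.0% in the average, so these counts alone are no result about the members.

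The smallest p of ABA against mock in Ws was that of psbJ, at 0.29 (SE 0.13, limma adjusted p = 0.222). Its intensity was 6250.7, 5339.9 and 5854.3 in Ws ABA, numbers 3 to 1, against 5034.3, 4926.7 and 4259.6 in Ws mock. It was the sole member whose 2 groups of 3 arrays did not overlap, where 21.2% of all probe sets did not. In rop10-1 the groups overlapped in all 41 members, where 27.9% of all probe sets did not overlap. In rop10-1 it read 5353.3, 5364.2 and 4131.4 with ABA, against 4778.7, 5628.2 and 5490.4 in mock, where the groups overlapped at a difference of -0.10 (SE 0.13), and of 0.020 without rop10-1 ABA 1. The interaction, ABA in rop10-1 minus ABA in Ws, was -0.40 for psbJ (SE 0.18, unadjusted p = 0.0477, limma adjusted p = 1). No member passed the adjusted test of the interaction, nor did any of the 15923 probe sets, of which 1.89% had an unadjusted p under 0.05.

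The other members with the smallest p for ABA were psbI, psbK, petB, ndhA, psbA, psbC and psaJ, none of them called by the group fit. The gene psbI encodes a small photosystem II subunit. It read 2150.7, 1291.0 and 1110.1 in rop10-1 ABA, numbers 3 to 1, against 2163.3, 1857.3 and 1403.8 in rop10-1 mock, and 2220.1, 923.7 and 1504.4 in Ws ABA, against 2255.7, 1901.6 and 1542.4 in Ws mock. Its differences were -0.29 in rop10-1 and -0.36 in Ws (SE 0.31 each), with ABA below mock at every number in both genotypes. The gene psbK, its neighbour, read 3058.0, 1322.6 and 1579.3 in rop10-1 ABA, against 2454.1, 2035.1 and 1772.6 in rop10-1 mock, and 3196.5, 1080.7 and 1675.9 in Ws ABA, against 3086.3, 2118.4 and 1910.1 in Ws mock. For psbK ABA lay above mock in number 3 and below it in numbers 2 and 1, with an average difference of -0.26 (SE 0.26). The gene ndhA, for a membrane subunit of NDH, read 2239.4, 1509.4 and 1682.4 in rop10-1 ABA, against 2199.5, 1579.6 and 1259.4 in rop10-1 mock, and 2531.0, 1376.0 and 870.2 in Ws ABA, against 2374.8, 1714.5 and 1544.6 in Ws mock. The groups overlapped in both genotypes, with a difference of -0.35 in Ws (SE 0.33, limma adjusted p = 0.635) that was 0.016 without Ws ABA 1.

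In the average over both genotypes 0 of 41 members were called by the group fit, where 15.5% of all probe sets were, with 0 members and 29.2% of all at an unadjusted p under 0.05. With the replicate number as a block 2 members fell with ABA, where 28.0% of all probe sets were called. They were psbC at -0.37 (SE 0.11, limma adjusted p = 0.023) and psbA at -0.24 (SE 0.08, limma adjusted p = 0.0461). In the group fit psbC had the same estimate with an SE of 0.32 and a limma adjusted p of 0.494.

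The declines of psbC and psbA were deepest in number 2. The intensity of psbC in number 2 was 1965.0 in rop10-1 ABA and 1817.9 in Ws ABA, against 3119.3 in rop10-1 mock and 3195.1 in Ws mock. In number 3 it was 3869.6 in rop10-1 ABA and 4830.1 in Ws ABA, against 4268.8 in rop10-1 mock and 5244.3 in Ws mock. In number 1 it was 1850.3 in rop10-1 ABA and 1589.4 in Ws ABA, against 1889.6 in rop10-1 mock and 2204.9 in Ws mock, so that ABA lay below mock in all 6 pairs of arrays. ABA minus mock for psbC was -0.66 in rop10-1 and -0.81 in Ws in number 2, -0.14 and -0.12 in number 3, and -0.03 and -0.47 in number 1. For psbA it was -0.71 and -0.34 in number 2, -0.08 and 0.05 in number 3, and -0.29 and -0.09 in number 1. In the average over both genotypes, leaving out any single array numbered 2 left 0 members called in the fit with the block.

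**Figure D5:**
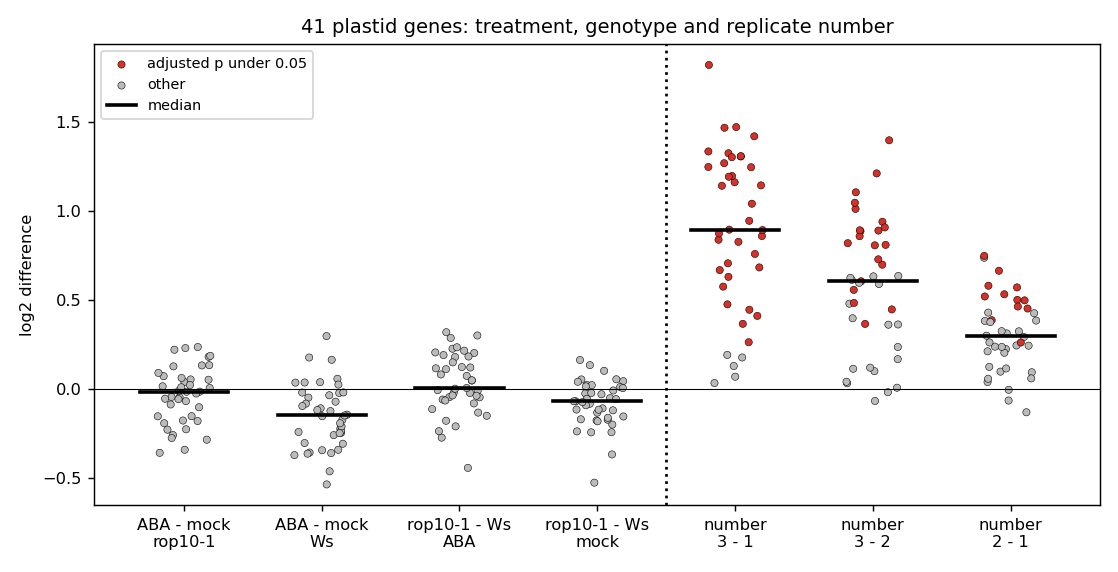
Differences in log2(intensity + 16) for the 41 tested members, 1 point per member and a line at the member median, with ABA and genotype comparisons from the group fit left of the dotted line and replicate numbers right of it, red where the limma adjusted p was under 0.05. Medians are -0.02 for ABA in rop10-1, -0.15 for ABA in Ws, 0.00 for rop10-1 against Ws under ABA and -0.07 in mock, with no red point, and 0.89, 0.60 and 0.30 for number 3 minus 1, 3 minus 2 and 2 minus 1.

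The other members were read in the same way within each number. Each such value is 1 array minus 1 array, and the members vary together, so counts of members are not replicates. In number 2 the member median of ABA minus mock was -0.30 in rop10-1, with 39 of 41 members lower with ABA, and -0.31 in Ws, with 37 lower. In number 3 the medians were 0.12 in rop10-1 and 0.05 in Ws, and in number 1 they were 0.06 and -0.12. Over all tested probe sets the medians in rop10-1 and Ws were -0.05 and -0.05 in number 2. They were -0.05 and -0.03 in number 3 and -0.04 and -0.05 in number 1. A number-by-ABA term was added after these values were seen, beside genotype, number and ABA. By limma's F test of that term 0 of 41 members were called, where 0.00628% of all probe sets were, and 11 had an unadjusted p under 0.05, where 2.85% of all did. The smallest adjusted p among the members was 0.606, that of petG.

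The genotypes were compared within each treatment. Under ABA 0 of 41 members were called for rop10-1 against Ws, where 0.0188% of all probe sets were, and in mock 0, where 0.0314% were. At an unadjusted p under 0.05 there were 0 members in both, where 7.16% of all were under ABA and 3.73% in mock. In the average over treatments 0 members were called, where 0.0377% of all were, with 0 members and 9.57% of all at an unadjusted p under 0.05. So few calls over the whole array leave little to read from the members' count. Member medians of rop10-1 minus Ws were 0.00 under ABA and -0.07 in mock, and the whole 95% interval of the average lay within a 2-fold change for 40 of 41 members. With the replicate number as a block 0 members were called under ABA, in mock and in the average, where 0.270%, 0.0440% and 1.43% of all probe sets were. At an unadjusted p under 0.05 the block gave 2 members under ABA, 1 in mock and 1 in the average. The share of all was not counted, so these counts alone are no result about the members. The groups of 3 arrays overlapped in all 41 members in both treatments, where 10.9% of all probe sets under ABA and 9.40% in mock did not overlap.

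The members with the smallest p between genotypes were psbJ under ABA, at -0.24 (SE 0.13, limma adjusted p = 0.755), psbJ in mock, at 0.16 (SE 0.13, limma adjusted p = 0.996), and petN in the average, at -0.31 (SE 0.25, limma adjusted p = 0.731). The gene petN encodes a small subunit of the cytochrome b6f complex. It read 128.2, 63.0 and 45.8 in rop10-1 ABA, numbers 3 to 1, against 141.6, 80.3 and 101.2 in Ws ABA. In mock it read 116.7, 87.8 and 66.6 in rop10-1, against 160.7, 101.5 and 63.5 in Ws, and the genotypes overlapped in both treatments. Within number 3, 36 of 41 members were lower in rop10-1 mock than in Ws mock, with a median difference of -0.21. The member medians in numbers 2 and 1 were -0.02 and -0.08. Over all tested probe sets the medians were 0.01 in number 3, 0.02 in number 2 and -0.05 in number 1. Each of these values is 1 array minus 1 array.

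Other members named by the smallest p between genotypes were ndhE, psbH, petL and psbM, none of them called. The gene ndhE, for a membrane subunit of NDH, read 904.8, 494.7 and 338.1 in rop10-1 mock, numbers 3 to 1, against 1079.0, 808.0 and 538.0 in Ws mock, a difference of -0.53 (SE 0.53). It was lower in rop10-1 mock at all 3 numbers, and the groups overlapped. The gene psbH, for a small photosystem II subunit, read 4126.8, 3548.0 and 2952.4 in rop10-1 mock, against 4806.3, 3778.6 and 3428.3 in Ws mock, a difference of -0.17 (SE 0.24). It too was lower at all 3 numbers with overlapping groups. The gene petL, for a small cytochrome b6f subunit, read 1476.5, 1264.7 and 934.7 in rop10-1 ABA, against 1656.6, 1425.5 and 1321.1 in Ws ABA, and 1550.8, 1644.5 and 949.7 in rop10-1 mock, against 1602.2, 1557.7 and 888.5 in Ws mock. Its average difference was -0.12, and 0.0064 without rop10-1 mock 1. The gene psbM, for another small photosystem II subunit, read 12762.1, 10699.3 and 8127.5 in rop10-1 ABA, against 13087.2, 12107.9 and 10903.2 in Ws ABA, and 10212.8, 13251.4 and 9877.7 in rop10-1 mock, against 13794.2, 10065.9 and 8652.2 in Ws mock. For psbM rop10-1 was lower at all 3 numbers under ABA and at number 3 alone in mock, with an average difference of -0.08, and of 0.013 without Ws mock 3.

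Among markers of other cell types, the guard cell gene AT1G22690 fell with ABA in rop10-1, at -1.49 (limma adjusted p = 0.010), and its estimate in Ws was -0.84 (limma adjusted p = 0.135). In the fit with the block it fell in both genotypes (limma adjusted p = 0.0018 in rop10-1 and 0.0419 in Ws). The other tested guard cell gene, FMA, was at -0.04 in both genotypes (limma adjusted p = 0.917 in rop10-1 and 0.919 in Ws). The part of this change in the members' values was not tested.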

How the data were processed

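Per the submitters' processing notes, the authors used GCOS 1.1.1. They deposited 1 intensity per probe set on a linear scale. How GCOS scaled the arrays is not recorded in the sources read. The deposited values of all 12 arrays share a 2% trimmed mean close to 500, so they lie on a common scale. The authors' values were used as deposited, and 0 columns belonged to other samples. Names came from the array platform's probe table (13513 probe sets with a single gene, 503 with several, 8730 with none listed) and a RefSeq gene table (TAIR10.1).

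Deposited intensities were tested as log2(intensity + 16) with limma 3.58.1 in R 4.3.3, over all arrays. Controls and the lowest 30% by mean were left out. The group fit held 4 group means with an intensity trend. Tests were two-sided with Benjamini-Hochberg adjustment over all tested probe sets, with calls at an adjusted p under 0.05. A second fit added replicate number, tested by F and then pairwise. The pairwise contrasts and the counts of number order were added after the F test was seen.

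The numbers paired the arrays. Deviations from group means correlated at 0.215 to 0.711 for the same number (18 pairs) and at -0.475 to 0.11 for different numbers (36 pairs). The design text calls the replicates biological, and no source read says what a number marks.

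Arrays were shown in full for the 6 members with the largest and the 3 with the smallest F, the members with the smallest p per comparison, the highest-intensity member per complex, and rbcL and psbA. Members and lists were chosen with earlier results of these data known. Sequences were not used here. The fits were tested on simulated data with noise drawn separately for each probe set, unlike the members, which vary together. Changes were planted in probe sets drawn at random from all tested. Replicate number took a median of 25.1% of the variance over all tested probe sets and 77.9% in the members. The shares called below are therefore not those to expect for the members. Of planted 2-fold changes with ABA in Ws, 59.2% were called by the group fit and 80.6% with the block. For replicate number 89.2% of planted 2-fold changes were called. False calls were 0.64%, 3.84% and 4.72% of calls in the same order. Alternatives were the pseudocount, the low filter, the normalization, the trend, the replicate block, subsets of arrays and each array left out.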

Additional observations from a re-analysis of the deposited data

How the results depend on the processing

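The count of members that differed by replicate number was 35, and it was 31 to 36 with another pseudocount, no low filter, quantile normalization, median centring or no intensity trend. It was 28 without Ws ABA 3 and 28 to 35 over all single arrays left out, 11 in the 6 ABA arrays alone, 25 in the 6 mock arrays alone, 23 without number 1, 35 without number 2 and 12 without number 3. Fits of fewer arrays have fewer degrees of freedom. The counts of members under these alternatives, here and below, are given without the share of all probe sets called. A change in such a count cannot be told from a change over the whole array. For ABA and genotype the count was 0 under every alternative without the replicate block, each array left out included. With the replicate block it was 2 for the average ABA effect (psbC and psbA), and the block changed no other call of the full set of arrays. With the replicate block and 1 array left out, that count was 0 to 4, with 0 without any array numbered 2, 1 without Ws mock 1, Ws mock 3, rop10-1 mock 1 or rop10-1 ABA 3, and 4 without Ws ABA 3. For ABA in rop10-1 it was 0 to 1, with 1 without rop10-1 mock 3, and for ABA in Ws it was 0 to 6, with 6 without Ws ABA 3 and 1 without Ws mock 3 or rop10-1 mock 2. The cause was not tested. Some uncalled estimates changed sign. Number 3 minus number 1 was -0.011 for psaJ in the mock arrays alone and -0.040 to 0.085 for psbL over single arrays left out. Over the same settings ABA minus mock was -0.75 to 0.016 for ndhA in Ws, -0.15 to 0.016 for psaJ in rop10-1 and -0.18 to 0.020 for psbJ in rop10-1, and average rop10-1 minus Ws was -0.25 to 0.0064 for petL and -0.16 to 0.013 for psbM. With the block the values that changed sign were 0.044 without rop10-1 mock 2 and 0.016 without rop10-1 ABA 2 for psaJ, 0.0060 without rop10-1 ABA 1 for psbJ and 0.013 without rop10-1 mock 3 for psbM. Dim probe sets limited what petD and ndhF could show, as both lay below the low filter.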
